A study of Caenorhabditis elegans with 48 samples.

Results

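E02H1.1 RNAi and the Empty_vector control were compared in the nematode Caenorhabditis elegans for translational efficiency (TE), the ribosome footprints of a gene relative to its mRNA. A TE change is the log2 change in footprints less the log2 change in mRNA. The genes described were all those counted in both the mRNA-seq and the Ribo-seq table, 10741 of the 19454 genes of the mRNA-seq table, and 10714 of them passed the low-count filter in both assays while 27 did not. They were measured in 16 of the 48 libraries of the series, 4 mRNA-seq and 4 Ribo-seq libraries from worms on E02H1.1 RNAi and 4 of each assay from worms on Empty_vector. RNAi lowers a transcript by way of double-stranded RNA of matching sequence, and an empty vector carries no worm sequence. The labels give every one of these libraries the source young adult and name no strain, genotype, age or length of treatment. Nothing in them states whether replicates are independent cultures, and p-values therefore cover only the spread among the libraries, which may be technical. Libraries are called by the letters A to D of their table columns.

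Ribosome profiling sequences the short stretches of mRNA that translating ribosomes shield from nuclease, so the footprints on a gene follow both how much mRNA there is and how many ribosomes sit on it. TE divides footprints by mRNA, and a gene can be called for TE through its footprints, through its mRNA or through both. E02H1.1 is the worm homologue of human DIMT1, which methylates a pair of neighbouring adenosines near the 3' end of 18S ribosomal RNA, in the small ribosomal subunit, and the title of the series concerns the inheritance of 18S methylation. Human DIMT1 is also known for its part in maturing the small subunit.

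The mRNA-seq libraries held 19.2 to 22.4 M counts each in E02H1.1 and 20.5 to 21.9 M in Empty_vector. The Ribo-seq libraries were shallower and unequal, at 4.23 to 6.39 M (mean 5.41 M) in E02H1.1 and 5.78 to 8.66 M (mean 7.52 M) in Empty_vector. Against the label, 41 transcripts of adult yolk, adult cuticle and major sperm protein summed to only 6.43 to 7.77 CPM (counts scaled to the library total) per E02H1.1 mRNA-seq library and 4.59 to 5.81 CPM per Empty_vector library, with 16 and 15 of them at 0 throughout, and none was in the Ribo-seq table. A set of 6 oocyte transcripts summed to 39.4 to 48.3 CPM in E02H1.1 mRNA-seq and 56.5 to 68.1 CPM in Empty_vector. A set of 5 sheath and apical matrix transcripts summed to 3726 to 3857 CPM in E02H1.1 and 3572 to 3984 CPM in Empty_vector. In Ribo-seq 2 of the oocyte transcripts were present, at 9.06 to 14.6 CPM in E02H1.1 and 12.4 to 17.1 CPM in Empty_vector, which overlapped. In mRNA-seq the groups did not overlap for the adult and oocyte markers, and their part in the results was not tested. In such bulk samples fewer cells of a type and less RNA per cell cannot be told apart.

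The targeted gene was reduced in both assays, and its TE was not called. E02H1.1 (WBGene00008455) had 19.7, 20.8, 16.9 and 19 CPM in mRNA-seq of E02H1.1 libraries A to D, against 65.5, 67.6, 75.3 and 62.7 CPM in Empty_vector libraries A to D. Its footprints stood at 10.2, 10.9, 8.73 and 15 CPM in E02H1.1 and at 47.6, 41.2, 47.6 and 46.4 CPM in Empty_vector. No library of either assay overlapped between the groups. On the log2 scale its mRNA fell by 1.83 (SE 0.08) and its footprints fell by 2.00 (SE 0.11). The TE of E02H1.1 stood at -0.17 ± 0.14 (SE, n = 4 libraries per group and assay, edgeR adjusted p = 0.492) and did not pass the test. In what follows, values with ± are log2 changes of E02H1.1 over Empty_vector with their SE.

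TE changed for 1160 of the 10714 genes tested (10.8%) at an adjusted p under 0.05 in edgeR's quasi-likelihood test of the interaction between assay and group. It was higher in E02H1.1 for 599 genes (5.59%) and lower for 561 (5.24%). Most changes were small: a fold of at least 1.5 was reached by 146 genes (1.36%), of which 88 were higher (0.821%) and 58 lower (0.541%). Over all genes tested the log2 change had a SD of 0.264 in TE, 0.349 in mRNA and 0.313 in footprints, beside median standard errors of 0.126, 0.0783 and 0.0974. Of the 144 genes named here with a TE call, 84 kept it whichever library was left out, 60 lost it for at least 1 library and 31 for at least 5 of the 8. The TE of single libraries did not overlap between the groups for 525 of the 599 genes called higher and 505 of the 561 called lower. Over all 10714 genes tested it did not overlap for 2262. The calls rest on the same libraries, so this is no separate support for them. Without E02H1.1 B the count of genes with changed TE was 594, without E02H1.1 D it was 723 and without Empty_vector B it was 763. With both assays thinned to the smallest library, 4.23 M counts, it was 759. With the deposited TE values centred on each library's median and tested in limma, 591 were higher and 898 lower. When same-named mRNA-seq and Ribo-seq columns were taken as 1 culture, as the deposited TE values pair them, the count was 2227.

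Calls of higher TE came mostly with lower mRNA, and calls of lower TE came in similar numbers with lower footprints and with higher mRNA. Among the 599 genes with higher TE, 497 (83.0%) had lower mRNA with footprints not called, 56 (9.35%) had higher footprints with mRNA not called, and 23 (3.84%) had both lower mRNA and higher footprints. Their median log2 change was 0.35 in TE, -0.29 in mRNA and 0.07 in footprints. Among the 561 genes with lower TE, 237 (42.2%) had lower footprints with mRNA not called, 228 (40.6%) had higher mRNA with footprints not called, and 65 (11.6%) had both higher mRNA and lower footprints. Their medians were -0.33 in TE, 0.13 in mRNA and -0.20 in footprints. For comparison, mRNA itself was called for 5224 genes (48.8%) and footprints for 2063 (19.3%, with 1047 or 9.77% higher and 1016 or 9.48% lower). The mRNA calls were 2363 higher (22.1%) and 2861 lower (26.7%), and the medians over all genes tested were 0.03 in TE, -0.04 in mRNA and 0.00 in footprints. Since mRNA enters TE with a negative sign, the mRNA and TE changes of a gene are not independent. Genes with higher TE had a median of 66.5 CPM in Empty_vector mRNA-seq and those with lower TE a median of 167 CPM, against 38.3 CPM over all genes tested.

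**Figure D1:**
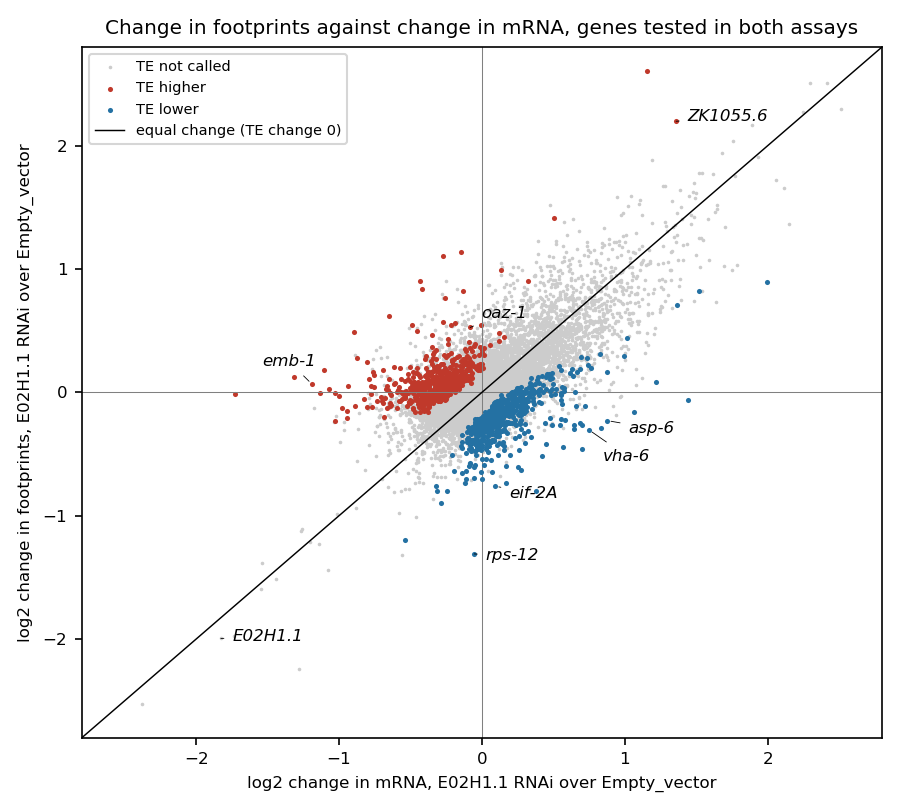
Log2 change in footprints (vertical axis) against log2 change in mRNA (horizontal axis), E02H1.1 RNAi over Empty_vector, with each of the 10714 genes tested as a point, red where TE was higher, blue where it was lower and grey where it was not called. The line marks equal change: red genes lie above it mainly at negative mRNA change and footprints near 0, blue genes lie below it, and E02H1.1 itself lies near the line at the lower left.

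Among the 15 genes with the largest TE increases were small subunits of several protein complexes, and what had moved in them was the mRNA. emb-1, which encodes a subunit of the anaphase-promoting complex, had 13.7, 7.54, 9.09 and 7.37 CPM in the mRNA-seq of E02H1.1 libraries A to D, against 21.5, 20.9, 21.3 and 22.1 CPM in Empty_vector libraries A to D. Its footprints were 30.3, 28.7, 32.6 and 34 CPM in E02H1.1 and 29.5, 30.2, 31.3 and 28.6 CPM in Empty_vector. The mRNA groups were far apart, with E02H1.1 A the nearest to the controls, while the footprints of both groups overlapped. The log2 change in TE of emb-1 was 1.25 ± 0.22 (adjusted p = 0.000472), with -1.19 ± 0.15 in mRNA and 0.07 ± 0.16 in footprints. tomm-7, a subunit of the outer mitochondrial translocase, had 29.3, 19.1, 22.4 and 18.3 CPM in E02H1.1 mRNA-seq and 38.9, 36.3, 36.8 and 52.4 CPM in Empty_vector. Footprints of tomm-7 stood at 49.9, 45.8, 47.2 and 50.7 CPM in E02H1.1 and 50.2, 53, 48.9 and 57.4 CPM in Empty_vector. TE of tomm-7 rose by 0.78 ± 0.22 on the log2 scale (adjusted p = 0.0225), a call lost when E02H1.1 B, C or D or Empty_vector A or C was left out, and when both assays were thinned. The same pattern held for ucr-11, a subunit of respiratory complex III (TE 0.99 ± 0.28, mRNA -0.93 ± 0.19), for hpo-18, the epsilon subunit of ATP synthase (TE 0.86 ± 0.26, mRNA -0.98 ± 0.17), and for gtf-2H5, a subunit of the transcription factor TFIIH (TE 0.83 ± 0.17, mRNA -0.62 ± 0.11). None of the 3 was called in footprints. The TE call was lost on leaving out any library but E02H1.1 A for ucr-11 and for hpo-18, and for hpo-18 also under both blocks and with the deposited TE values.

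The rest of these 15 were rpb-12, taken up with its complex, and genes known only by sequence name. F35H10.5 (TE 1.05 ± 0.23), C03D6.9 (0.97 ± 0.21), Y58A7A.2 (0.93 ± 0.24), W02A2.9 (0.90 ± 0.18), M110.10 (0.82 ± 0.18), T07A9.15 (0.80 ± 0.23) and C17E7.12 (0.79 ± 0.23) all had lower mRNA, from -1.03 to -0.75, with footprints not called. T23F2.3 (0.81 ± 0.23) was called in neither assay alone. The TE calls were lost without E02H1.1 B or D or Empty_vector D for T23F2.3 and T07A9.15 (the second also without Empty_vector C), without E02H1.1 B or Empty_vector B for Y58A7A.2, and without E02H1.1 D or Empty_vector D for C17E7.12. ZK1055.6 differed in kind, as both its layers rose and its footprints rose more. ZK1055.6 had 12.2, 12.3, 11 and 10.2 CPM in E02H1.1 mRNA-seq and 5.79, 4.73, 3.51 and 3.78 CPM in Empty_vector. Its footprints were 10.4, 11.2, 14.6 and 10.5 CPM in E02H1.1 and 3.25, 2.75, 1.77 and 2.27 CPM in Empty_vector. Neither assay overlapped between groups, and the log2 change was 1.36 ± 0.15 in mRNA, 2.20 ± 0.21 in footprints and 0.84 ± 0.27 in TE (adjusted p = 0.0382). That TE call was lost on leaving out any library but E02H1.1 A.

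The Sm and Lsm proteins form the rings around the small nuclear RNAs of the spliceosome and around related RNAs. They were listed after their values were seen. Of 15 members tested, 10 had higher TE (66.7%, against 5.59% of all genes) and none lower. The median log2 change was 0.33 against 0.03 over all genes. All 15 had lower mRNA, against 26.7% of all genes, and none was called in footprints. snr-7, a core Sm protein, had 120.4, 87.3, 110.3 and 73.1 CPM in E02H1.1 mRNA-seq and 161, 154, 167 and 186 CPM in Empty_vector. Footprints of snr-7 were 189, 211, 207 and 208 CPM in E02H1.1 and 212, 198, 214 and 197 CPM in Empty_vector. Here E02H1.1 D was the lowest mRNA library and A the highest of its group, and footprints of the groups overlapped. TE of snr-7 rose by 0.76 ± 0.18 (adjusted p = 0.0103), that of lsm-6 by 0.67 ± 0.16 and that of snr-5 by 0.54 ± 0.13. Summed over the 15 members, mRNA stood at 1584, 1445, 1553 and 1380.3 CPM in E02H1.1 libraries A to D and 1905, 1882, 2131 and 2027 CPM in Empty_vector libraries A to D. Summed footprints were 2066, 2122, 2216 and 2185 CPM in E02H1.1 and 2246, 2191, 2380.3 and 2197 CPM in Empty_vector. The snr-5 call was lost without E02H1.1 D. The number called higher was 4 without E02H1.1 D, 6 without E02H1.1 B and 7 to 9 on leaving out any other library. The wider list of splicing and mRNA processing genes, which holds these members too, had 19 of 79 higher (24.1%) and none lower. Its mRNA was lower for 48 of the 79. The number called higher in it was 6 without E02H1.1 D, 9 without E02H1.1 B and 12 without Empty_vector A.

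RNA polymerase II is built from 12 subunits whose names follow those of yeast, where numbers were given from the largest subunit to the smallest, and this list too was added after values were seen. TE rose for the 9 subunits rpb-4 to rpb-12 (75%, against 5.59% of all genes). It fell for rpb-2, the second largest subunit, while the catalytic subunit ama-1 and rpb-3 did not pass the test. The largest change was in rpb-12, which is shared by all the nuclear RNA polymerases. rpb-12 had 30.9, 19.8, 24 and 21.7 CPM in E02H1.1 mRNA-seq and 41.5, 39.9, 42.4 and 46.7 CPM in Empty_vector. Footprints of rpb-12 were 36.9, 39.2, 42.7 and 43.8 CPM in E02H1.1 and 37.6, 42.7, 47.6 and 41 CPM in Empty_vector, which overlapped. TE of rpb-12 rose by 0.77 ± 0.21 (adjusted p = 0.0179), that of rpb-10 by 0.50 ± 0.12 and that of rpb-11 by 0.43 ± 0.12, down to 0.27 ± 0.08 in rpb-7. rpb-2 moved in the other layer: its mRNA was 218, 224, 227 and 224 CPM in E02H1.1 and 225, 235, 223 and 238 CPM in Empty_vector. Footprints of rpb-2 were 213, 221, 222 and 219 CPM in E02H1.1 and 259, 262, 285 and 255 CPM in Empty_vector, with no overlap. Its TE fell by 0.24 (SE 0.07, adjusted p = 0.0221). The rpb-2 call was lost without E02H1.1 B, E02H1.1 C or Empty_vector C, and the rpb-12 call without E02H1.1 B, C or D or Empty_vector A or D. ama-1 stood at -0.10 ± 0.08 in TE (adjusted p = 0.501). Of the 12 genes 10 had lower mRNA and 2 lower footprints, and the number with higher TE was 2 without E02H1.1 B, 2 without E02H1.1 D, 3 without Empty_vector D, 5 without E02H1.1 C or Empty_vector A, and 6 to 9 on leaving out any other library.

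**Figure D2:**
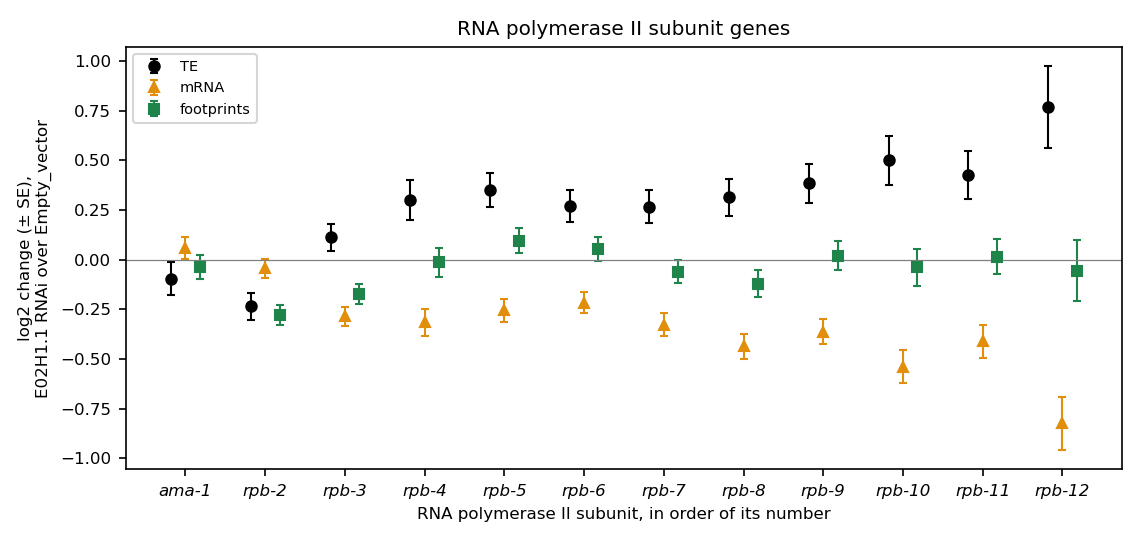
Log2 change, E02H1.1 RNAi over Empty_vector, with its SE, in TE (black circles), mRNA (orange triangles) and footprints (green squares) for the 12 RNA polymerase II subunit genes in order of their number. TE lies above 0 from rpb-3 on and reaches 0.77 in rpb-12, where mRNA is lowest, and from rpb-3 on footprints lie nearer to 0 than mRNA does.

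Mitochondrial genes showed both kinds of change. Of 69 mitochondrial ribosomal proteins, 9 had higher TE (13%, against 5.59% of all genes) and none lower. Their median was 0.16, and 36 had lower mRNA. mrps-7, a protein of the small mitochondrial subunit, stood at 0.43 ± 0.10 in TE, -0.27 ± 0.07 in mRNA and 0.17 ± 0.08 in footprints. Of 68 nuclear-encoded oxidative phosphorylation genes, 12 had higher TE (17.6%) and 4 lower (5.88%, against 5.24% of all genes). The 12 were accessory or small subunits such as ndua-2 of complex I (0.60 ± 0.14), nduv-3 of complex I (0.71 ± 0.22) and cox-6C of complex IV (0.44 ± 0.13), all with lower mRNA. The 4 with lower TE were atp-1 (-0.20 ± 0.06) and atp-2 (-0.31 ± 0.07), the alpha and beta subunits of ATP synthase, ucr-2.2, a core protein of complex III (-0.29 ± 0.08), and cox-15, which makes haem A for complex IV (-0.45 ± 0.11). The nduv-3 call was lost on leaving out any library but E02H1.1 A, the cox-6C call without E02H1.1 B, C or D or Empty_vector A or D, and the atp-1 call without E02H1.1 B or C or Empty_vector A or D. The mitochondrial ribosomal proteins with higher TE numbered 2 without E02H1.1 D, 3 without Empty_vector D, 4 without E02H1.1 B and 5 without Empty_vector B. The oxidative phosphorylation genes with higher TE numbered 2 without E02H1.1 D, 4 without E02H1.1 B or without Empty_vector A or D, 6 without E02H1.1 C or Empty_vector C and 7 without Empty_vector B.

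In a smaller set, footprints rose and mRNA was not called or fell. oaz-1, named after its values were seen, encodes ornithine decarboxylase antizyme, whose full-length product is made through a programmed ribosomal frameshift. oaz-1 had 523, 505, 496 and 522 CPM in E02H1.1 mRNA-seq and 568, 554, 523 and 522 CPM in Empty_vector. Footprints of oaz-1 stood at 280.4, 322, 345 and 268 CPM in E02H1.1, all above the 194, 209.9, 214 and 226 CPM of Empty_vector. The mRNA did not pass the test (-0.08 ± 0.06), the footprints rose (0.53 ± 0.06) and TE rose by 0.61 ± 0.08 (adjusted p = 1.5e-05). Gene counts hold no reading frame, so frameshifting itself was not measured. inf-1, the eIF4A helicase of cap-dependent initiation, had a TE change of 0.34 ± 0.06 and footprints up by 0.24 ± 0.04. ttr-50, a transthyretin-related gene also picked after its values were seen, rose in footprints by 0.15 ± 0.05 while its mRNA fell by 0.29 (SE 0.05), which gave a TE of 0.44 ± 0.07.

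Some cuticle collagens were of this kind, although only 50 of the 175 in the mRNA table could be tested. TE was higher for 7 of the 50, namely dpy-2, dpy-3, dpy-7, dpy-10, dpy-14, dpy-17 and col-121, and lower for col-10, while the list's median was -0.13, the opposite sign. Footprints rose with mRNA not called in dpy-3, dpy-7, dpy-14 and dpy-17, mRNA fell with footprints not called in dpy-2 and dpy-10, and col-121 was called in neither assay alone. The genes dpy-2, dpy-3, dpy-7 and dpy-10 encode collagens of the annular furrows of the cuticle. dpy-7 had 379.9, 408, 404 and 360.4 CPM in E02H1.1 mRNA-seq and 398, 384, 354 and 418 CPM in Empty_vector, which overlapped. Footprints of dpy-7 were 256, 262, 258 and 218 CPM in E02H1.1 and 204, 205, 179 and 196 CPM in Empty_vector, which did not. TE of dpy-7 rose by 0.34 ± 0.08 (adjusted p = 0.00539) and that of dpy-17 by 0.34 ± 0.07. Across the list mRNA was higher for 34 genes and footprints for 25, and col-10 had mRNA up by 1.36 ± 0.12 and footprints up by 0.71 ± 0.16. The col-10 call was lost on leaving out any library but Empty_vector A. The number called higher was 3 without E02H1.1 A or Empty_vector B or D, and 4 without E02H1.1 B or C or Empty_vector A.

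Small subunit ribosomal proteins showed the largest share of lower TE among the lists named with the design. TE fell for 16 of 32 members (50%, against 5.24% of all genes) and rose for none, with a median of -0.25 against 0.03 over all genes. rps-12, which had the lowest change of any gene meeting the naming rule, lost footprints while its mRNA was not called. rps-12 (WBGene00004481) had 669, 678, 642 and 669 CPM in E02H1.1 mRNA-seq and 687, 716, 673 and 683 CPM in Empty_vector. Footprints of rps-12 were 66.3, 36.7, 35.6 and 62.9 CPM in E02H1.1 libraries A to D and 133, 126, 125 and 119.8 CPM in Empty_vector libraries A to D. All 4 knockdown libraries were low in footprints, B and C most of all. TE of rps-12 fell by 1.26 (SE 0.18, adjusted p = 0.000211), footprints fell by 1.31 (SE 0.14) and mRNA stood at -0.05 ± 0.11. Next came rps-13, with footprints of 206, 176, 157 and 205 CPM in E02H1.1 and 327, 325, 322 and 328 CPM in Empty_vector and a TE of -0.56 ± 0.09, although its mRNA fell too (-0.24 ± 0.06). rps-4 had footprints of 469, 414, 389 and 466 CPM in E02H1.1 and 617, 610.0, 603 and 605 CPM in Empty_vector, with an mRNA not called (0.04 ± 0.06) and a TE of -0.52 ± 0.09. rps-22 was at -0.51 ± 0.09 and rps-1 at -0.48 ± 0.08. rack-1, the scaffold protein on the small subunit head, was at -0.45 ± 0.07, and there mRNA rose by 0.27 ± 0.05 while footprints fell by 0.17 (SE 0.05).

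Over the 32 members, mRNA was higher for 7 and lower for 7, while footprints were lower for 12 and higher for none. Their footprints summed to 12404, 10677, 10127 and 12530.3 CPM in E02H1.1 libraries A to D and 13454, 13121, 13265 and 13401 CPM in Empty_vector libraries A to D, so that every knockdown library lay below every control and B and C lay lowest. Summed mRNA was 22160.5, 21202, 20619 and 20952 CPM in E02H1.1 and 21107, 20854, 19076 and 21343 CPM in Empty_vector, with overlap. The count of members with lower TE was 12 to 16 over all single libraries left out.

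Large subunit ribosomal proteins had lower TE for 15 of 42 members (35.7%, against 5.24% of all genes) and higher TE for none, with a median of -0.15. The acidic stalk proteins, which recruit the elongation factors to the ribosome, led the list. rla-1 had 619.6, 590.1, 539 and 548 CPM in E02H1.1 mRNA-seq and 516, 535, 480.1 and 511 CPM in Empty_vector. Footprints of rla-1 stood at 215, 184, 168 and 230.2 CPM in E02H1.1 and 314, 289, 303 and 299.9 CPM in Empty_vector, with no overlap. TE of rla-1 fell by 0.76 (SE 0.11, adjusted p = 9.56e-05). rla-0, the base of the stalk, combined higher mRNA (0.32 ± 0.06) with lower footprints (-0.31 ± 0.06), which gave -0.64 ± 0.09 in TE, and the third stalk gene rla-2 did not pass the test (0.17 ± 0.15). In most other called members, among them rpl-5 (-0.44 ± 0.11), rpl-16 (-0.42 ± 0.09) and rpl-4 (-0.36 ± 0.09), mRNA rose and footprints were not called. Over the list mRNA was higher for 16 and lower for 6 members, and footprints were lower for 10. Summed footprints of the 42 stood at 14643, 12817, 12155 and 14974 CPM in E02H1.1 and 14779.8, 14411, 14609 and 14752 CPM in Empty_vector, where only libraries B and C lay below the controls. Without E02H1.1 B the count was 9, and over all single libraries left out it was 9 to 17.

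A TE change above 0 was found in 11 large and 3 small subunit members, none of them called. Those with the highest values had lower mRNA: rpl-41.1 stood at 0.80 ± 0.34 in TE and -1.03 ± 0.19 in mRNA, rps-28 at 0.68 ± 0.37 and -0.79 ± 0.25, rpl-39 at 0.55 ± 0.26 and -0.54 ± 0.19, rpl-41.2 at 0.55 ± 0.30 and -0.66 ± 0.19, and rpl-29 at 0.53 ± 0.28 and -0.72 ± 0.19. These encode some of the shortest proteins of the ribosome. In others of the positive members mRNA was not called, as in rpl-10 (0.01 ± 0.08 and 0.02 ± 0.05) and rpl-11.1 (0.21 ± 0.15 and 0.06 ± 0.08). rpl-41.1 and rpl-41.2, like rpl-25.1 and rpl-25.2, are close copies between which reads may have been split, so their single values are uncertain.

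**Figure D3:**
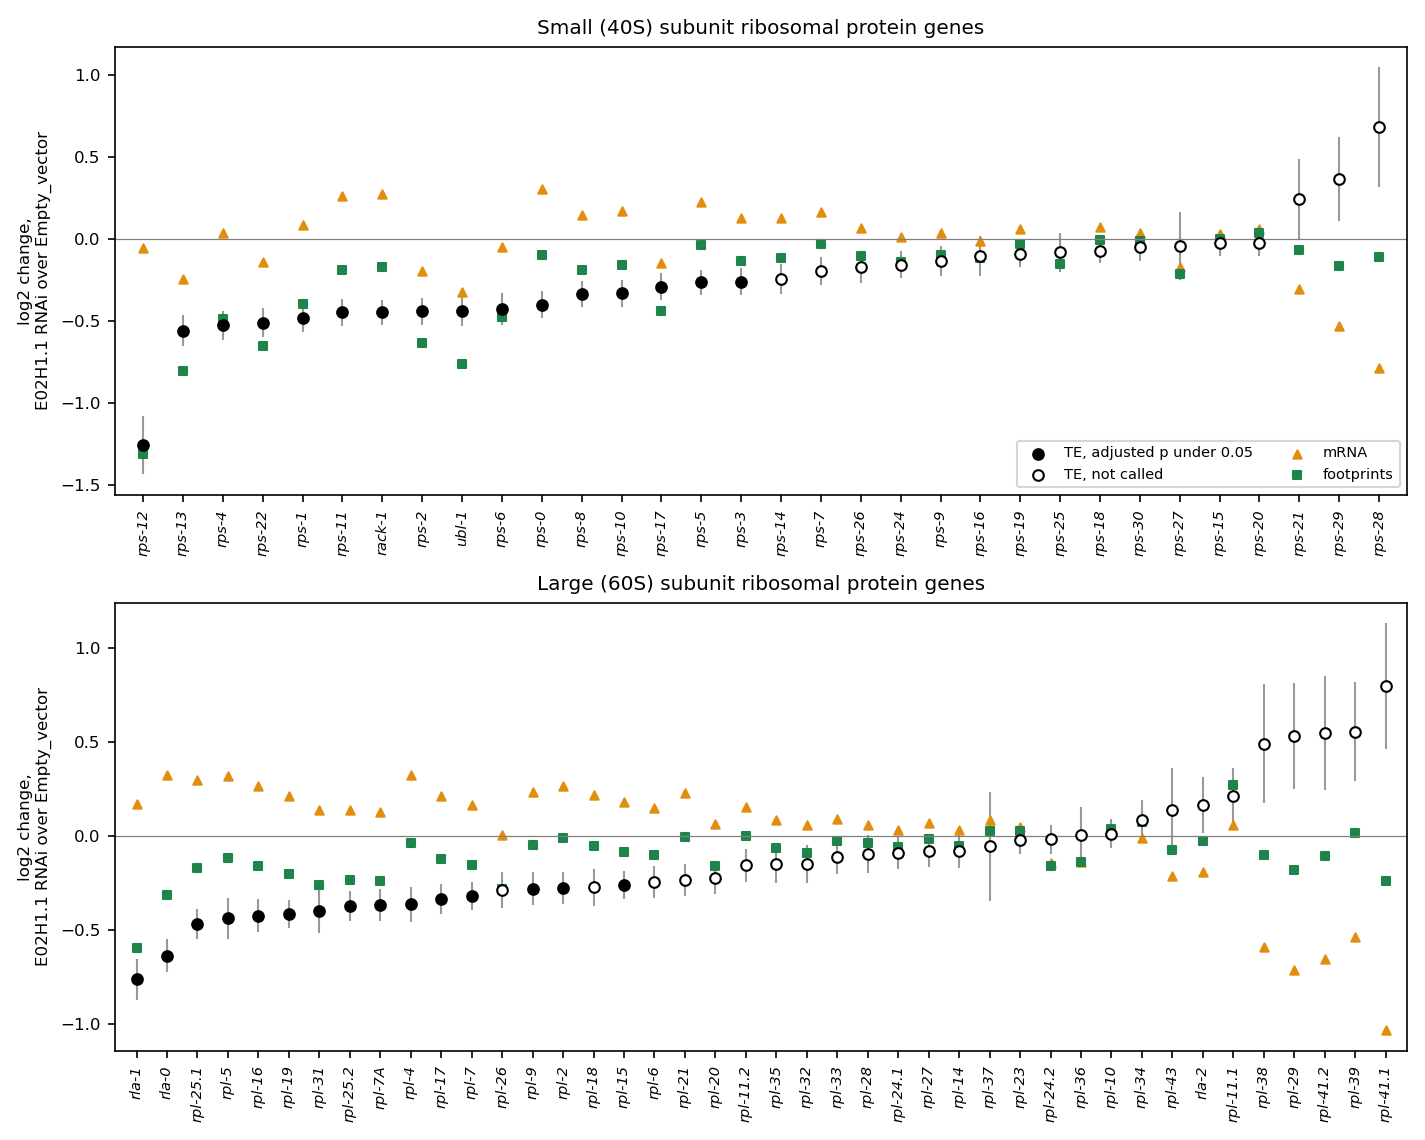
Log2 change, E02H1.1 RNAi over Empty_vector, for the 32 small and 42 large subunit ribosomal protein genes in order of their TE change: TE with its SE (circles, filled where adjusted p was under 0.05), mRNA (orange triangles) and footprints (green squares). TE is lowest in rps-12 at -1.26, where footprints carry the change, and above 0 in 11 large and 3 small subunit members at the right, none of them called; the highest of these have lower mRNA.

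Translation factors moved in both directions. Of 35 initiation factors 7 had higher TE (20%, against 5.59% of all genes) and 4 lower TE (11.4%, against 5.24%). Lower mRNA was called for 24 of them, and for 26.7% of all genes. eif-2A, which can bring the initiator tRNA to the ribosome without eIF2, had 176, 191, 204 and 177 CPM in E02H1.1 mRNA-seq and 172, 168, 193 and 170.1 CPM in Empty_vector, which overlapped. Footprints of eif-2A were 65.9, 64.9, 64.2 and 69.4 CPM in E02H1.1, all below the 107, 111, 129.7 and 98.4 CPM of Empty_vector. TE of eif-2A fell by 0.85 (SE 0.10, adjusted p = 3.17e-06). The poly(A)-binding proteins pab-1 (-0.29 ± 0.07) and pab-2 (-0.34 ± 0.06) also lost footprints, with mRNA not called. Those with higher TE included eif-1 (0.27 ± 0.07) and eif-1.A (0.36 ± 0.09), which bind the small subunit during scanning, eif-2D (0.50 ± 0.13) and ife-4, a cap-binding eIF4E (0.21 ± 0.07), each with lower mRNA. Of 11 elongation factors, release factors and their regulators 5 had lower TE (45.5%) and none higher. These were the kinase gcn-2, which phosphorylates eIF2 on amino acid shortage (-0.47 ± 0.10), its activator gcn-1 (-0.36 ± 0.08) and the eEF2 kinase efk-1 (-0.37 ± 0.08). The elongation factors eef-1G (-0.34 ± 0.09) and eef-2 (-0.29 ± 0.06) made up the rest. Of 30 aminoacyl-tRNA synthetases 6 fell (20%), iars-1, qars-1, wars-1, ears-1, lars-1 and aars-2, from -0.26 to -0.21. ears-2 alone rose (0.40 ± 0.13, 3.33% of the list), a call lost on leaving out any library but E02H1.1 D or Empty_vector A. No synthetase was called lower without E02H1.1 B, 2 were without E02H1.1 C or Empty_vector A, and 3 without Empty_vector B. Without E02H1.1 B, 4 initiation factors had higher TE, and the ife-4 call was lost on leaving out any library but Empty_vector B. The eef-1G call was lost without E02H1.1 B or C or Empty_vector A or D. mnk-1, a kinase of eIF4E, and vbh-1, a DEAD-box helicase, are outside the lists and were picked after their values were seen, at -0.62 ± 0.08 and -0.60 ± 0.08 with footprints lower and mRNA not called.

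Of 52 genes listed as ribosome biogenesis and RNA exosome factors, 10 had lower TE (19.2%, against 5.24% of all genes) and 4 higher (7.69%, against 5.59%). nog-1, a GTPase of large subunit assembly, had footprints of 216, 192, 175 and 199.8 CPM in E02H1.1 and 251, 259.9, 273 and 246 CPM in Empty_vector, over an mRNA that was not called, and a TE of -0.45 ± 0.07. dao-5 (-0.24 ± 0.07; call lost without E02H1.1 B, C or D or Empty_vector B or C) and ngp-1 (-0.29 ± 0.07) also lost footprints, and the exosome subunit exos-3 rose in TE (0.54 ± 0.11) with lower mRNA. The list takes in imp-2 and imp-3 by their symbols, which in the worm stand for intramembrane proteases. Both had a TE call, and the counts of this list include them. Its count of lower TE was 3 without E02H1.1 B and 6 without E02H1.1 C or Empty_vector B or C, and its count of higher TE was 1 without E02H1.1 B and 2 without E02H1.1 C or Empty_vector B or C. Of 6 genes for 18S ribosomal RNA modification emg-1 alone was called, at 0.30 ± 0.10, with lower mRNA, and that call was lost under 9 of 19 alternatives.

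Several proteases and a subunit of the proton pump were among the genes whose TE fell while mRNA rose. asp-6, an aspartyl protease, had 101, 102, 92.4 and 115 CPM in E02H1.1 mRNA-seq and 53.3, 65.1, 47.9 and 57.4 CPM in Empty_vector. Footprints of asp-6 stood at 60.9, 55.7, 45.3 and 58.1 CPM in E02H1.1 and 63.3, 73.2, 55 and 68.7 CPM in Empty_vector. The mRNA groups were wholly apart and the footprint groups overlapped. TE of asp-6 fell by 1.103 (SE 0.20, adjusted p = 0.00134). vha-6, the intestinal a subunit of the vacuolar proton pump, had 109, 107, 95.1 and 106 CPM in E02H1.1 mRNA-seq and 59.4, 74.3, 51.6 and 63.2 CPM in Empty_vector. Footprints of vha-6 were 67.9, 50.2, 48.4 and 61.2 CPM in E02H1.1 and 75.4, 72.8, 57.8 and 76.6 CPM in Empty_vector. TE of vha-6 fell by 1.05 (SE 0.18, adjusted p = 0.000734). In asp-1, another aspartyl protease of the gut, mRNA rose by 0.72 ± 0.10, footprints stood at -0.11 ± 0.11 and TE at -0.83 ± 0.15. asp-2 (-0.42 ± 0.13) and asp-5 (-0.58 ± 0.14) fell as well, asp-5 with mRNA and footprints both higher. pho-1, an intestinal acid phosphatase, was at -0.77 ± 0.20 with mRNA at 0.66 ± 0.13. In the whole list of 63 proton pump and lysosomal genes 10 fell (15.9%, against 5.24% of all genes) and 3 rose (4.76%, against 5.59%). The list's median was -0.03, and mRNA was higher for 18 and lower for 10. The 3 that rose were nuc-1, a nuclease, lmp-1, a lysosomal membrane protein, and spp-10, the worm prosaposin (0.22, 0.29 and 0.30). Without Empty_vector D the count that fell was 6. The asp-2 and nuc-1 calls were lost on leaving out any library, and the pho-1 call without E02H1.1 B or D or Empty_vector A.

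The 15 largest decreases under the naming rule also included tent-5, gsa-1, endu-2 and nhr-88. tent-5, a cytoplasmic poly(A) polymerase, had mRNA of 83.3, 88.9, 79.8 and 80.1 CPM in E02H1.1 and 51.6, 60.3, 42.9 and 51.1 CPM in Empty_vector, with overlapping footprints and a TE of -0.94 ± 0.14. gsa-1, the alpha subunit of the stimulatory G protein, was at -0.94 ± 0.14 with mRNA up by 0.65 ± 0.09. endu-2, an endoribonuclease, lost footprints (-0.73 ± 0.18) and stood at -0.90 ± 0.22 in TE. nhr-88, a nuclear hormone receptor, was at -0.81 ± 0.16 with mRNA up by 0.55 ± 0.09. The others were C32F10.4 (-0.97 ± 0.13), ZC204.12 (-0.87 ± 0.17), Y54G2A.11 (-0.77 ± 0.14) and Y47G6A.5 (-0.75 ± 0.21), with mRNA higher in all 4, and the Y47G6A.5 call was lost without E02H1.1 C or Empty_vector A. Of 64 Argonaute and RNA interference genes 2 were called, both lower (3.12%, against 5.24% of all genes) and both with footprints lower. They were pup-2, a poly(U) polymerase (-0.56 ± 0.08), and nrde-2, a factor of nuclear RNA interference (-0.21 ± 0.07). The nrde-2 call was lost on leaving out any library but Empty_vector A. In the synaptic list the called member with the lowest TE was egl-30, the Gq alpha subunit, which fell by 0.59 (SE 0.07), with mRNA up by 0.15 ± 0.05 and footprints at -0.44 ± 0.05.

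**Figure D4:**
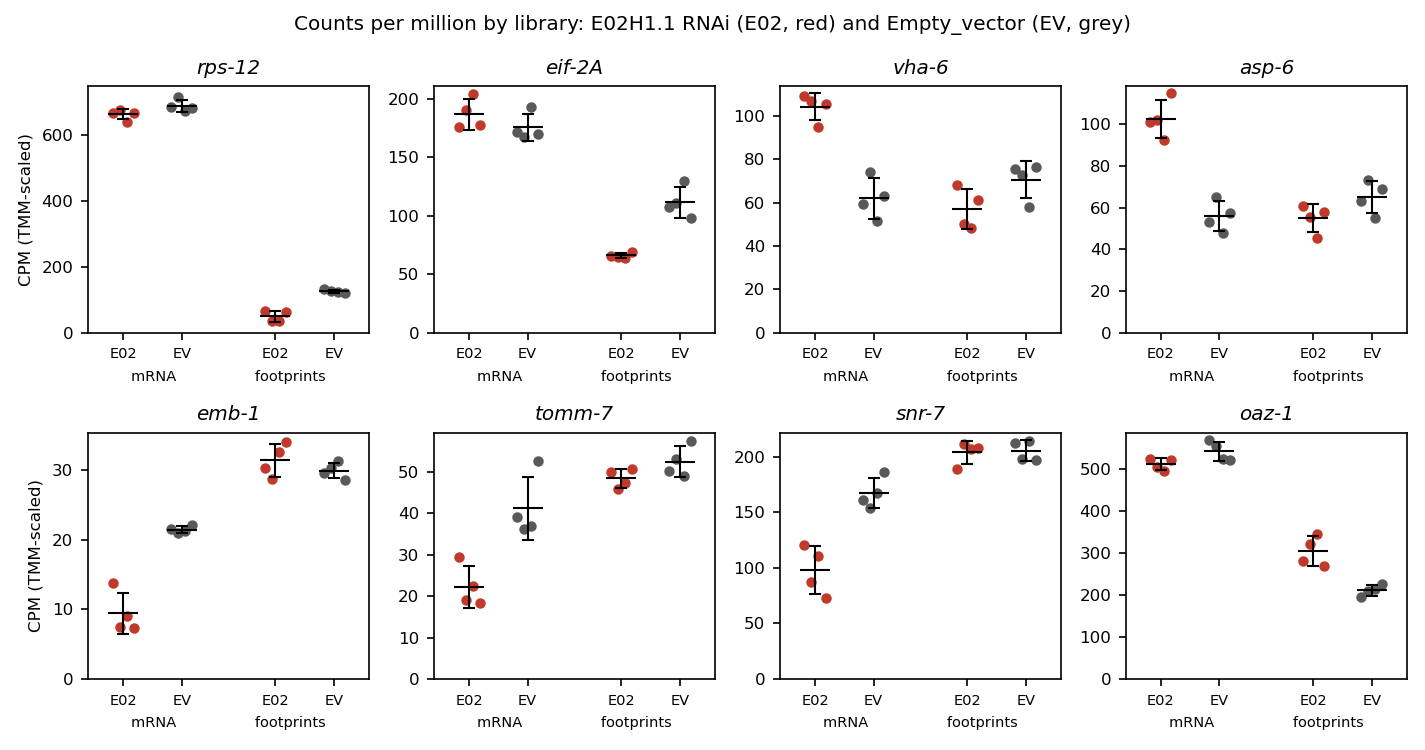
CPM of 8 genes in each library, mRNA on the left and footprints on the right of each panel, with E02H1.1 RNAi in red (E02) left of Empty_vector in grey (EV), and bars for mean and SD (n = 4). rps-12 and eif-2A are lower in footprints alone, and vha-6 and asp-6 are higher in mRNA with lower mean but overlapping footprints. emb-1, tomm-7 and snr-7 are lower in mRNA alone, and oaz-1 is higher in footprints alone.

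In the lipid list 6 of 76 genes had lower TE (7.89%, against 5.24% of all genes) and 7 higher (9.21%, against 5.59%), and 3 of the 6 were desaturases. fat-1, fat-2, fat-3 and fat-4 encode the desaturases that together build the long polyunsaturated fatty acids of the worm. fat-4 had 109, 119.6, 119.9 and 113 CPM in E02H1.1 mRNA-seq and 128, 128, 118.9 and 125 CPM in Empty_vector. Footprints of fat-4 were 22.8, 18.8, 21 and 22.7 CPM in E02H1.1 and 37.5, 31.6, 39.9 and 31.9 CPM in Empty_vector, with no overlap. TE of fat-4 fell by 0.62 (SE 0.11, adjusted p = 0.000458). fat-1 had footprints of 14.6, 11.5, 11.8 and 14.9 CPM in E02H1.1 and 20.5, 18.4, 23 and 20.4 CPM in Empty_vector, and its TE fell by 0.53 (SE 0.11, adjusted p = 0.00251). fat-2 fell in mRNA (-0.54 ± 0.11) and further in footprints (-1.20 ± 0.17), with TE at -0.66 ± 0.21. fat-3 did not pass the test for TE (-0.32 ± 0.11, adjusted p = 0.0525), nor did fat-5 (0.41 ± 0.24) and fat-6 (-0.36 ± 0.27), which make monounsaturated fatty acids. mdt-15, a Mediator subunit known to drive fat gene expression, rose in mRNA (0.25 ± 0.04), fell in footprints (-0.17 ± 0.04) and stood at -0.42 ± 0.06 in TE. The fat-2 call was lost on leaving out any library but E02H1.1 D or Empty_vector B. The others of the 6 were cpt-1 and ech-1.2 of fatty acid oxidation, and the 7 with higher TE included the lipid-binding proteins lbp-1, lbp-3, lbp-4 and lbp-9, from 0.26 to 0.42. The number higher was 4 without E02H1.1 B or Empty_vector D.

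Central carbon metabolism showed lower TE for 7 of 45 genes (15.6%, against 5.24% of all genes) and higher TE for 3 (6.67%, against 5.59%). The 7 belong to the pyruvate dehydrogenase complex and the tricarboxylic acid cycle: dlat-1 (-0.37 ± 0.08), pdha-1 (-0.26 ± 0.07), idha-1 (-0.33 ± 0.07), idhg-1 (-0.21 ± 0.06), ogdh-1 (-0.22 ± 0.07), dlst-1 (-0.29 ± 0.07) and sucl-1 (-0.25 ± 0.06). In 6 of them footprints fell, and in ogdh-1 mRNA rose. The 3 with higher TE were mdh-1, hxk-3 and sucg-1, and sucg-1 belongs to the same cycle, so its called members did not all fall. Without E02H1.1 D none of the 3 was called. The ogdh-1 call was lost on leaving out any library but E02H1.1 A or Empty_vector B, and the idhg-1 call without E02H1.1 B or C or Empty_vector B, C or D. Without E02H1.1 B, E02H1.1 C or Empty_vector D 4 were called lower. Cytosolic chaperones had 8 of 28 members lower (28.6%) and none higher, with a median of -0.13 against 0.03 over all genes. hsp-110, a nucleotide exchange factor of the Hsp70 system, had footprints of 486, 505, 506 and 487 CPM in E02H1.1 and 683, 719, 633 and 649 CPM in Empty_vector over overlapping mRNA, with a TE of -0.43 ± 0.10. The chaperonin subunits cct-1, cct-3, cct-6 and cct-7 fell by smaller steps, from -0.30 to -0.20, with mRNA higher in each, and hsp-17 rose in both layers but less in footprints, with TE at -0.69 ± 0.23. The cct-1 and hsp-17 calls were lost on leaving out 7 of the 8 libraries each, any but E02H1.1 A for cct-1 and any but Empty_vector C for hsp-17. The number of chaperones called lower was 4 without E02H1.1 B or C and 5 without Empty_vector A.

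Germ granule and maternal RNA-binding genes had 6 of 48 members lower (12.5%, against 5.24% of all genes) and none higher. cey-1, a Y-box RNA-binding protein, had footprints of 519, 439.7, 444 and 513 CPM in E02H1.1 and 577, 595, 609.5 and 573 CPM in Empty_vector, with mRNA not called and a TE of -0.35 ± 0.07. lin-41, a TRIM-NHL protein of oocyte growth, was at -1.18 ± 0.26, gls-1 at -0.33 ± 0.08 and gld-2, a poly(A) polymerase, at -0.24 ± 0.08, while the oocyte markers above were lower in E02H1.1 mRNA-seq. Histone methylation and heterochromatin genes had 10 of 76 lower (13.2%) and 5 higher (6.58%, against 5.59% of all genes). Of these, mes-3 (-0.39 ± 0.09) and mes-6 (-0.38 ± 0.10) of the worm Polycomb complex lost footprints with mRNA not called. The TE of dpy-30, a subunit shared by H3K4 methyltransferase complexes, rose (0.34 ± 0.06). Sarcomere and muscle attachment genes had 7 of 57 lower (12.3%) and 1 higher (1.75%), and mRNA was higher for 37 of them. The lowest values were those of alp-1, of the dense bodies that anchor thin filaments (-0.46 ± 0.10), and tnc-2, a troponin C (-0.46 ± 0.15). Without E02H1.1 B the number lower was 2, and without E02H1.1 D or Empty_vector A it was 4. Synaptic genes had 5 of 62 lower (8.06%, against 5.24% of all genes) and none higher, and 3 lower without E02H1.1 B. Their mRNA was higher for 41, and their median TE change was -0.20. The gld-2 call was lost on leaving out any library, and the tnc-2 call on leaving out any but E02H1.1 A or Empty_vector C. The germ granule count was 3 without E02H1.1 B or C or without Empty_vector A, C or D. The heterochromatin genes with lower TE numbered 5 without Empty_vector B and 6 without E02H1.1 B or C, and those with higher TE numbered 2 without E02H1.1 B, E02H1.1 D or Empty_vector D and 3 without Empty_vector A.

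Proteasome subunits were a list where both layers moved together. All 32 had lower mRNA and 21 had lower footprints, yet none was called for TE in either direction, and their median was 0.06. Their mRNA summed to 3125, 3138, 3292 and 3044 CPM in E02H1.1 libraries A to D and 3711, 3754, 4091 and 3747 CPM in Empty_vector libraries A to D. Their footprints summed to 5444, 5421, 5836 and 5595 CPM in E02H1.1 and 6178, 6394, 7101 and 6343 CPM in Empty_vector, with no overlap in either assay. No meiotic recombination gene (of 31) was called either. TE was called for 6 of 100 replication and cell cycle genes (5 higher, 1 lower) although 59 had lower mRNA, for 5 of 139 detoxification genes (4 higher, 1 lower), for 4 of 145 nuclear hormone receptors (1 higher, 3 lower), for 3 of 54 autophagy genes (2 higher, 1 lower), for 2 of 44 nuclear pore and transport genes (1 each way) and for 3 of 60 hedgehog- and patched-related genes (1 higher, 2 lower), shares at or below the 10.8% of all genes. Of 89 innate immunity genes 6 were higher (6.74%, against 5.59% of all genes) and 2 lower (2.25%, against 5.24%). Among them were cnc-10, a caenacin peptide (0.71 ± 0.13), nlp-31, an antimicrobial peptide (0.68 ± 0.17), and nsy-1, a kinase of the PMK-1 pathway (-0.31 ± 0.07). Without E02H1.1 D 2 of the 89 were higher, and without E02H1.1 B or Empty_vector A or D 3 were. Of 68 secretory pathway genes 6 were higher (8.82%) and 7 lower (10.3%), and of 29 insulin and TOR genes 3 were higher (10.3%) and 1 lower (3.45%). Of 28 organelle stress genes 2 were called each way (7.14% each), and of 11 propionate breakdown genes 2 each way (18.2% each). Of 54 neuropeptide genes 3 were higher (5.56%) and 1 lower (1.85%), and of 44 prion-like genes 5 were lower (11.4%). Of 38 histone genes 2 were higher (5.26%), of 10 yolk and eggshell genes 1 was called each way (10% each), and of 4 sperm genes none. Most of these small counts moved when a library was left out. Replication genes with higher TE numbered 1 without E02H1.1 A or D, 2 without E02H1.1 B or Empty_vector A or D and 3 without Empty_vector B. Detoxification genes with higher TE numbered 1 without E02H1.1 B or Empty_vector A and 2 without E02H1.1 C or D or Empty_vector B. Secretory genes with higher TE numbered 1 without E02H1.1 D, 2 without Empty_vector B or D and 3 without E02H1.1 B, and those with lower TE 3 without E02H1.1 C or Empty_vector A and 4 without E02H1.1 B or Empty_vector D. Insulin and TOR genes with higher TE numbered 1 without E02H1.1 B or C or Empty_vector A, and the 1 lower was lost on leaving out any library but E02H1.1 A. Neuropeptide genes with higher TE numbered 0 without E02H1.1 D and 1 without E02H1.1 A or Empty_vector D. Prion-like genes with lower TE numbered 2 without E02H1.1 C and 3 without Empty_vector C or D. Hedgehog-related genes with lower TE ran from 0 without E02H1.1 B or D to 5 without E02H1.1 A. Autophagy genes with higher TE numbered 0 without E02H1.1 B or D and 1 without Empty_vector B, C or D. Proteasome genes had 1 called higher without E02H1.1 C, and meiotic genes 1 called higher without E02H1.1 C or D or Empty_vector D and 1 lower without Empty_vector C. Counts in the nuclear hormone receptor, nuclear pore, histone, organelle stress and propionate lists changed by at least 1 for at least 1 library left out.

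**Figure D5:**
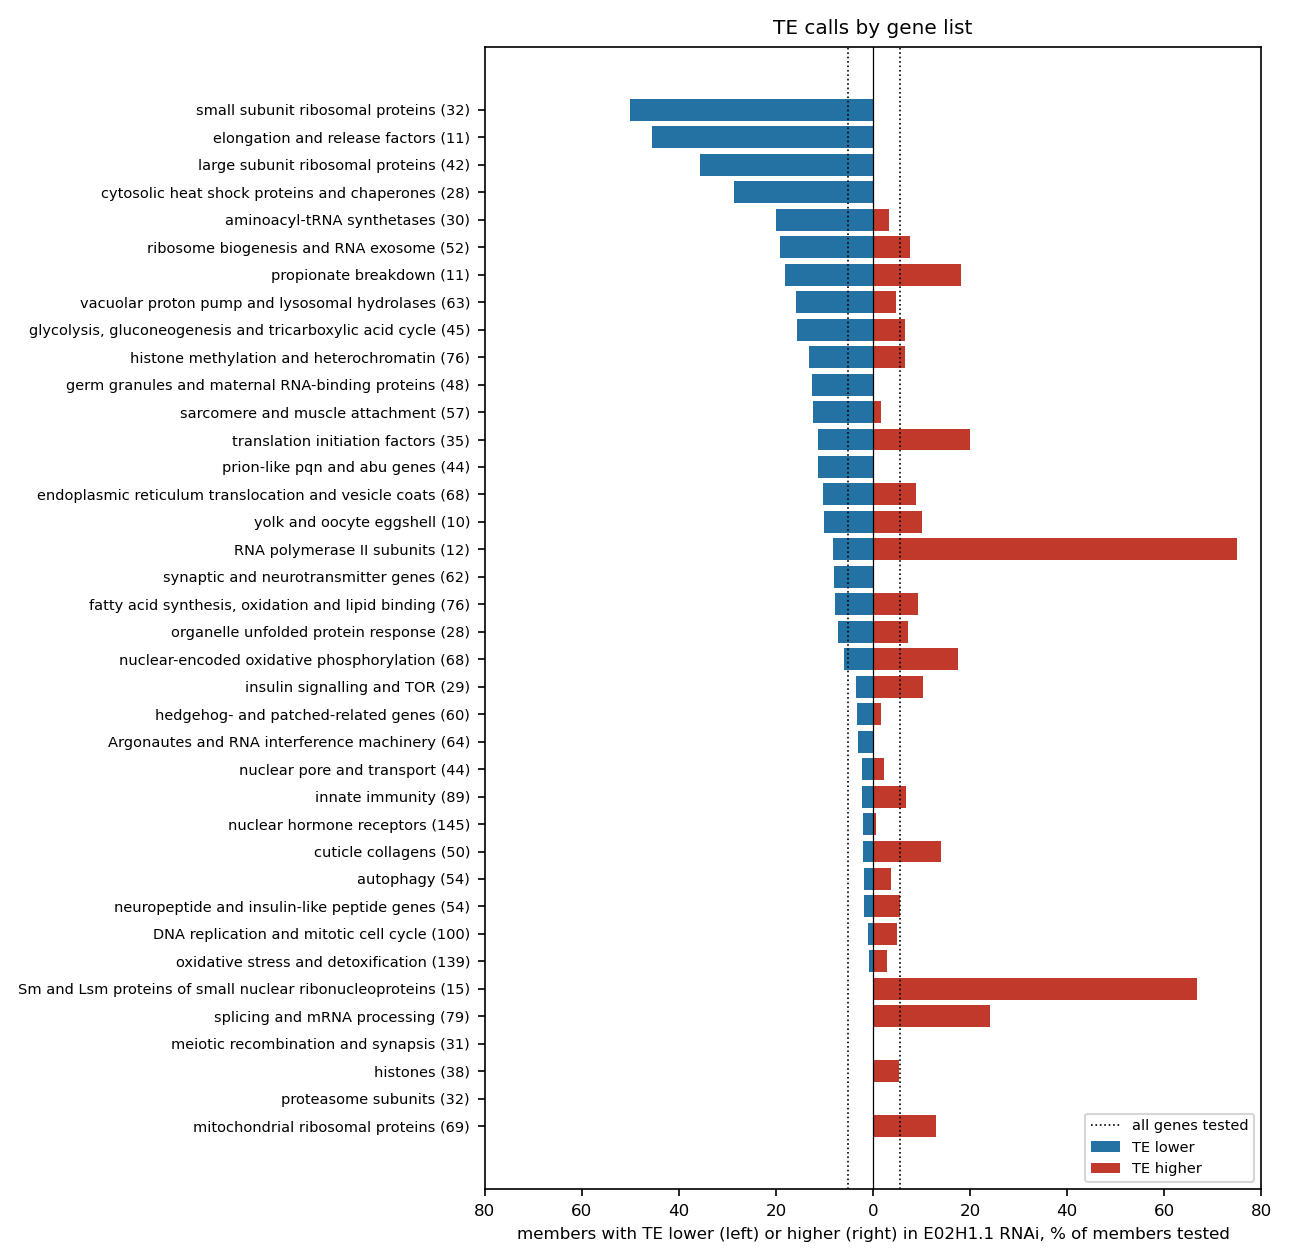
Share of the members tested (number in brackets) of each gene list with at least 10 members tested whose TE was lower (blue, to the left) or higher (red, to the right) in E02H1.1 RNAi than in Empty_vector, in % of members. The dotted lines mark the shares over all genes tested, 5.24% lower and 5.59% higher: the ribosomal protein and elongation factor lists extend furthest to the left, and the RNA polymerase II and Sm and Lsm lists, added after values were seen, furthest to the right.

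The experiment held a second knockdown, which was set beside E02H1.1 RNAi. C27F2.4 RNAi targets the worm homologue of human BUD23, which methylates a guanosine of 18S ribosomal RNA, and was measured against the same Empty_vector libraries. TE was called there for 94 genes (0.877%), 39 higher (0.364%) and 55 lower (0.513%). The 2 comparisons share their controls, so their values are given side by side only. rps-12 stood at -1.26 ± 0.18 in E02H1.1 and -0.50 ± 0.17 in C27F2.4, eif-2A at -0.85 ± 0.10 and -0.60 ± 0.10, oaz-1 at 0.61 ± 0.08 and 0.49 ± 0.08, and emb-1 at 1.25 ± 0.22 and 0.83 ± 0.21. Of the ribosomal protein lists, 0 of 32 small and 0 of 42 large subunit genes were called in C27F2.4, with medians of -0.04 and -0.02. Some other list medians lay nearer to those of E02H1.1. The Sm and Lsm list stood at 0.33 in E02H1.1 and 0.27 in C27F2.4, and RNA polymerase II subunits at 0.31 and 0.20. Elongation and release factors stood at -0.13 and -0.14, and cytosolic chaperones at -0.13 and -0.10. In C27F2.4, 2 Sm and Lsm genes and 2 RNA polymerase II genes were called higher. In edgeR's direct test of the difference between the knockdowns, given below, no ribosomal protein gene passed. The difference of rps-12 there was -0.76 ± 0.18 (adjusted p = 0.185).

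The difference between the knockdowns was tested directly, on the TE of E02H1.1 libraries less that of C27F2.4 libraries, and 5 genes passed (0.0467%), beside 943 at an unadjusted p under 0.05. All 5 are named here because their count is small. C27F2.4 itself differed most (0.79 ± 0.10, adjusted p = 0.00012), as its TE fell in its own knockdown (-0.61 ± 0.10) and stood at 0.18 ± 0.10 in E02H1.1, where it was not called. C32F10.4 was lower in E02H1.1 by 0.75 on the log2 scale (-0.75 ± 0.12, adjusted p = 0.00507). ztf-7, a zinc finger protein, had mRNA of 652, 648, 645 and 654 CPM in E02H1.1 and 623, 634, 586 and 632 CPM in Empty_vector. Its footprints were 182, 168, 160.1 and 191 CPM in E02H1.1 and 281, 269.6, 288 and 259 CPM in Empty_vector, wholly apart. TE of ztf-7 stood at -0.72 ± 0.07 in E02H1.1 and -0.37 ± 0.07 in C27F2.4, a difference of -0.34 ± 0.07 (adjusted p = 0.0296). skr-21, a Skp1-related gene of ubiquitin ligases, was at -0.63 ± 0.07 in E02H1.1 and -0.28 ± 0.07 in C27F2.4 (difference -0.36 ± 0.07), and T01G1.4 at -0.33 ± 0.08 and 0.10 ± 0.08 (difference -0.43 ± 0.08). This count was sensitive to the fit: it was 1 without E02H1.1 B or without E02H1.1 C, 2 without Empty_vector B, 20 without Empty_vector C, and 260 with columns paired as cultures.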

How the data were processed

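The deposited counts were whole numbers per gene with no scaling, 1 column per library, in an mRNA-seq and a Ribo-seq table. The submitters' processing notes name cutadapt, an adapter trimmer. With aligner, counting tool, build and strand setting not given in the sources used here, overlapping and antisense genes were not told apart, and no sequences or coordinates were used. The deposited log2 TE values of the authors were the unscaled log2 ratio of footprint to mRNA counts of the column of the same name, with 1 added to each, in all 256800 cases within 1e-09.

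Both assays of all 24 knockdown-experiment libraries were fitted in edgeR 4.0.16 (R 4.3.3): filterByExpr in each assay, TMM within each assay, a robust quasi-likelihood fit of assay by group, two-sided tests, and Benjamini-Hochberg adjustment over 10714 genes with 0.05 as the threshold. A SE is the log2 change over the square root of F. CPM are TMM-scaled counts, not per length. TE per library used a pseudocount of 0.5. Symbols came from a gene name table (10704 of 10714). The fit and its self-test ran on simulated data with known changes first.

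The members and gene lists were chosen with earlier results of these data known, and 2 of the 40 lists after values were seen. Named genes were the targets, the 15 highest and 15 lowest TE changes past the threshold with no overlap between libraries, a mean of at least 10 CPM in either group in both assays and no more than 2 genes of a symbol stem, and as many as 3 members of each list in each direction. Other names were chosen after their values were seen. Columns carry letters where the labels carry replicate numbers, so columns were matched to groups and not to single samples. Alternatives were DESeq2 1.42.0 (size factors; Wald test), limma 3.58.1 (voom; deposited TE), library totals, other filters, thinning, blocks, 2 groups only and leaving out each library.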

Additional observations from a re-analysis of the deposited data

Results flagged for a closer look

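Among 318 sets of 4 libraries (159 named genes in both groups), 16 held a library whose TE stood far from the other 3. That share is about the 1 in 20 that chance flags. TE here is the log2 of footprint CPM over mRNA CPM. The TE of E02H1.1 itself stood at -0.33 in E02H1.1 D, against -0.94 to -0.92 in the other 3 knockdown libraries. In E02H1.1 A the values were low for rpb-4 at 0.50 (others 0.69 to 0.72), rpb-7 at 1.03 (1.31 to 1.37) and snr-5 at 0.71 (1.19 to 1.28). In E02H1.1 C endu-2 stood at -0.997 (-0.48 to -0.43), and in E02H1.1 D exos-3 stood at 0.33 (0.70 to 0.78) and rla-2 at 0.39 (-0.08 to -0.03). In Empty_vector A mdh-1 stood at 1.17 (1.06 to 1.08). In Empty_vector B cct-6 stood at 0.16 (0.27 to 0.28) and ndua-2 at 0.20 (-0.14 to -0.09). In Empty_vector C the values stood apart for ZC204.12 at -0.19 (0.30 to 0.32), col-121 at -0.18 (-0.10 to -0.08), mnk-1 at -1.14 (-1.36 to -1.33), rla-2 at 0.067 (-0.18 to -0.16) and sucg-1 at 0.28 (0.49 to 0.51). In Empty_vector D snr-7 stood at 0.082 (0.36 to 0.40).

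The TE change in E02H1.1 less that in C27F2.4, tested as an interaction in edgeR, passed for 5 genes: C27F2.4 at 0.79, C32F10.4 at -0.75, T01G1.4 at -0.43, skr-21 at -0.36 and ztf-7 at -0.34, on the log2 scale.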

How the results depend on the processing

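The count of genes with changed TE, 1160, was 2227 with a culture block, 759 with both assays thinned, and 594 (without E02H1.1 B) to 1082 (without E02H1.1 A) when a library was left out. It stayed within 1.5 times under the other alternatives, from 1136 to 1636, where the highest was the replicate block by column letter. Calls of at least 1.5-fold, 146, numbered 57 among genes with a mean of at least 20 CPM in each assay, 94 without E02H1.1 D, and 82 to 171 over all libraries left out. The difference between the knockdowns, 5 genes, became 52 with the replicate block, 260 with the culture block, 49 with the DESeq2 Wald test, 9 with limma voom and 10 with the deposited TE values, and 1 to 20 when a library was left out. The cause of these moves was not tested, apart from fewer counts or genes by construction in thinning and the stricter filter. TE of E02H1.1 itself ran from -0.37 to -0.10 on leaving out a library and was not called under any alternative. The 30 genes with the largest changes gave 553 values under 19 alternatives, of which 498 kept direction and call, 55 lost the call and 0 reversed, and 19 of the genes kept their call throughout. The TE change of rpl-10, near 0 and not called, was -0.013 with a mean of at least 20 CPM in each assay, -0.031 with the deposited TE values, and -0.047 (without E02H1.1 D) to 0.041 (without E02H1.1 C) on leaving out a library. For columns with the same letter, deviations of E02H1.1 and Empty_vector correlated from -0.05 to 0.21 in mRNA-seq and from -0.05 to 0.17 in Ribo-seq. The correlation was over 0.1 in 1 of 4 pairs each, letter C in both assays. So few pairs cannot show whether the letters mark a block. Same-named mRNA-seq and Ribo-seq columns correlated from 0.00 to 0.50, over 0.1 in 6 of 12 pairs, and 2 of the 12 correlated best with their own partner. Ribo-seq depth, lower in E02H1.1, limits low genes.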
